A study of Homo sapiens with 6 samples.

Results

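The respiratory chain of SiHa cells was followed after knockdown of CNN3, the gene of calponin 3, an actin-binding protein. The chain was taken as 97 genes among the 48162 in the deposited table, chosen by name. They comprised 84 nuclear genes and the 13 protein-coding genes of mitochondrial DNA. The nuclear symbols started NDUFA, NDUFB, NDUFC, NDUFS or NDUFV with a number, UQCR or ATP5, or were SDHA to SDHD, CYC1 and 10 COX genes. Of the 84, 6 were not counted in complexes I to V. These were NDUFA4L2, ATP5MGL, UQCRHL, ATP5S and the readthroughs NDUFC2-KCTD14 and ATP5MF-PTCD1. NDUFA4 was counted in complex IV. SiHa is an established, HPV16-positive human cervical squamous carcinoma line. Its cells received either si-CNN3#1, a small interfering RNA directed at CNN3, or the control si-NC. Each group held 3 samples, which the study describes as independent experiments, with RNA collected at 48 h. All of the knockdown samples rest on the same siRNA, so an effect of CNN3 loss and an off-target effect of that siRNA cannot be told apart here. Bulk RNA also cannot separate a loss of mitochondria or cells from less RNA per mitochondrion or cell. The sense strands of the siRNAs, shown because they define the groups, were as follows.
si-CNN3#1 sense strand: gcagaugggaaccaacaaatt
si-NC sense strand: uucuccgaacgugucacgutt

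Oxidative phosphorylation is carried out by 5 protein complexes of the inner mitochondrial membrane. Complexes I and II pass electrons from NADH and succinate to coenzyme Q, complex III passes them on to cytochrome c, and complex IV hands them to oxygen. The protons pumped by complexes I, III and IV drive ATP synthesis by complex V. Complexes I, III, IV and V are built from subunits of both genomes, with the mitochondrial DNA supplying hydrophobic core proteins, while complex II is nuclear throughout. The mitochondrial genes are transcribed inside the organelle from its own promoters, whereas the nuclear genes are scattered over the chromosomes, and several of them carry sites for NRF1 and for factors of the ETS family such as GABPA.

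Total counts on genes ran from 18147028 to 19026341 in the si-CNN3 samples and from 20287139 to 24976517 in the si-NC samples. CNN3 itself stood at 56.5, 51.7 and 57.2 CPM (counts relative to library size, scaled by the TMM method) in si-NC replicates 1, 2 and 3 and at 26.0, 26.8 and 31.4 CPM with si-CNN3, a log2 fold change of -0.97 ± 0.06 (SE; edgeR quasi-likelihood test, adjusted p = 2.04e-20). The 9 epithelial markers summed to between 1457 and 1526 CPM with si-NC and between 1421 and 1482 with si-CNN3. Of these 9, 5 had a mean above 10 CPM. Single epithelial markers did change: of the 8 tested, 2 were called higher and 2 lower with si-CNN3 (50%, beside 13.3% of all genes). The 6 fibroblast markers summed to at most 12.6 CPM and the 2 endothelial markers analysed to at most 0.677 CPM in any sample. The 5 leukocyte markers summed to between 144.0 and 156.2 CPM with si-NC and between 120.2 and 128.1 with si-CNN3. Nearly all of that was CD14 (lower with si-CNN3, log2 fold change -0.30 ± 0.03), while the defining leukocyte gene PTPRC held between 6 and 18 counts and CD68 between 0 and 2. In that test, which compared si-CNN3 with si-NC over all 15860 genes with enough counts, 2111 genes (13.3%) had an adjusted p of at most 0.05; 978 (6.17%) were higher and 1133 (7.14%) lower with si-CNN3, and genes were said to rise or fall only where they passed this threshold.

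Of the 97 genes, 93 had enough counts for the test. The 4 others were near or at 0: UQCRHL (2 to 11 counts), ATP5MGL (1 to 7), the readthrough ATP5MF-PTCD1 (1 to 4) and the readthrough NDUFC2-KCTD14 (0 in every sample). Of the 80 nuclear genes tested, 16 rose (20%, beside 6.17% of all genes), 2 fell (2.50%, beside 7.14%) and 62 did not pass the threshold. Of the 13 mitochondrial genes, 0 rose, 3 fell (23.1%, beside 7.14%) and 10 did not pass. Of the 13, 2 were higher with an unadjusted p under 0.05 in edgeR, and DESeq2 called 0 higher and 3 lower. The median log2 fold change was 0.06 for the nuclear genes and -0.02 for the mitochondrial ones, beside 0.0023 for all genes tested. The nuclear median was 0.03 without si-CNN3 replicate 3 and 0.04 without si-NC replicate 2, and 0.05 to 0.08 without any other library. The mitochondrial median ran from -0.034 (without si-CNN3 replicate 1) to -0.0024 (without si-CNN3 replicate 3) with a library left out and was above 0 with total-count scaling (0.0021) and with limma (0.0019). The groups did not overlap in 24 of the 80 nuclear genes and in 4 of the 13 mitochondrial genes, beside 28.2% of all genes. The changes were small throughout. The nuclear rises spanned 7.81% (NDUFB4) to 17.9% (ATP5PD), and the falls spanned 5.13% (MT-ATP6) to 9.50% (MT-CO1).

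**Figure D1:**
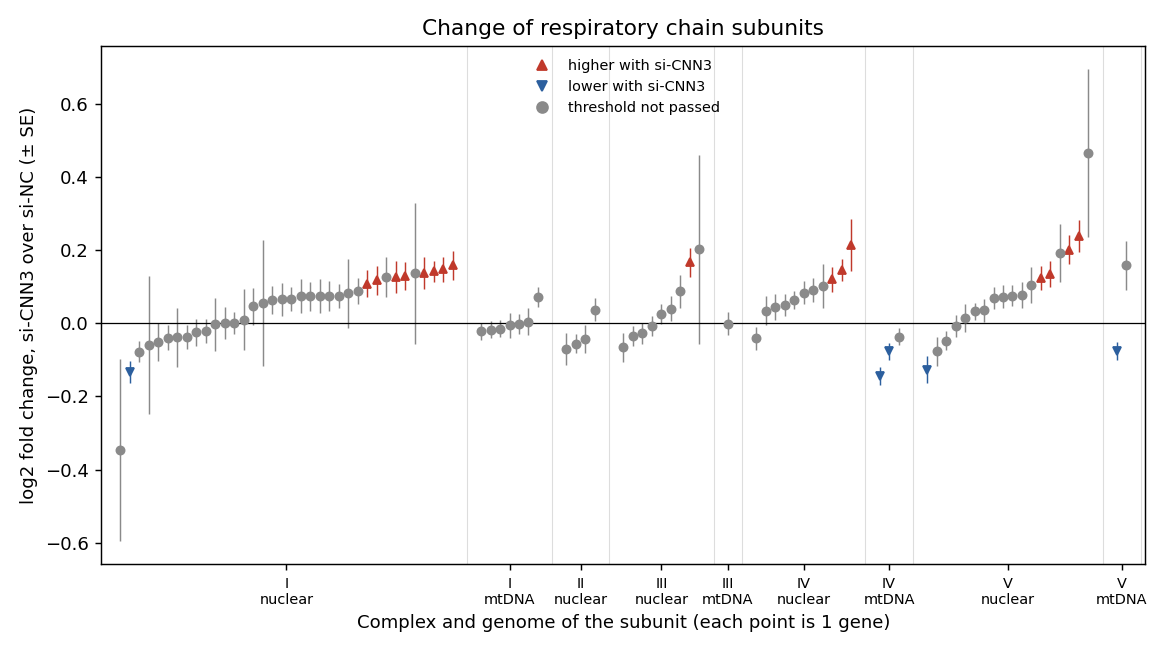
Log2 fold change (si-CNN3 over si-NC, with its SE) of each tested subunit, ordered within its complex and genome, with 1 point per gene. Triangles mark genes that passed the threshold: 16 nuclear genes point up and 2 down, while MT-CO1, MT-CO3 and MT-ATP6 point down and no mitochondrial gene points up.

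The balance of the genomes was then read from the summed counts. The ratio of the mitochondrial to the nuclear sum needs no scaling between samples, whereas each share is relative to the total counts of its sample. The 13 mitochondrial genes took 3.23%, 3.10% and 3.15% of all counts in si-NC replicates 1, 2 and 3 and 3.08%, 3.02% and 2.99% in the si-CNN3 samples, so that the groups did not overlap. The 84 nuclear genes took 1.018%, 0.997% and 1.013% with si-NC and 1.05%, 1.022% and 1.07% with si-CNN3. The knockdown samples were on the higher side, and the groups only just did not overlap. On the TMM scale the summed nuclear levels of complexes I, III, IV and V each overlapped between the groups. That of complex II was lower with si-CNN3 without overlap. The count of mitochondrial over nuclear subunits was 3.17, 3.11 and 3.11 with si-NC and 2.93, 2.96 and 2.79 with si-CNN3. Every si-CNN3 sample lay below every si-NC sample, and the mean ratio was 2.89 ± 0.09 against 3.13 ± 0.04 (SD, n = 3 each), or 92.4% of the control. These sums lean on the most abundant genes. MT-CO1 alone made up 38.3% ± 0.8 of the mitochondrial counts with si-NC and 36.6% ± 0.5 with si-CNN3. Without it the mitochondrial share was 1.97% ± 0.02 against 1.94% ± 0.02, and the groups, at 1.99%, 1.96% and 1.97% against 1.95%, 1.94% and 1.92%, still did not overlap, although the distance between them was then small.

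**Figure D2:**
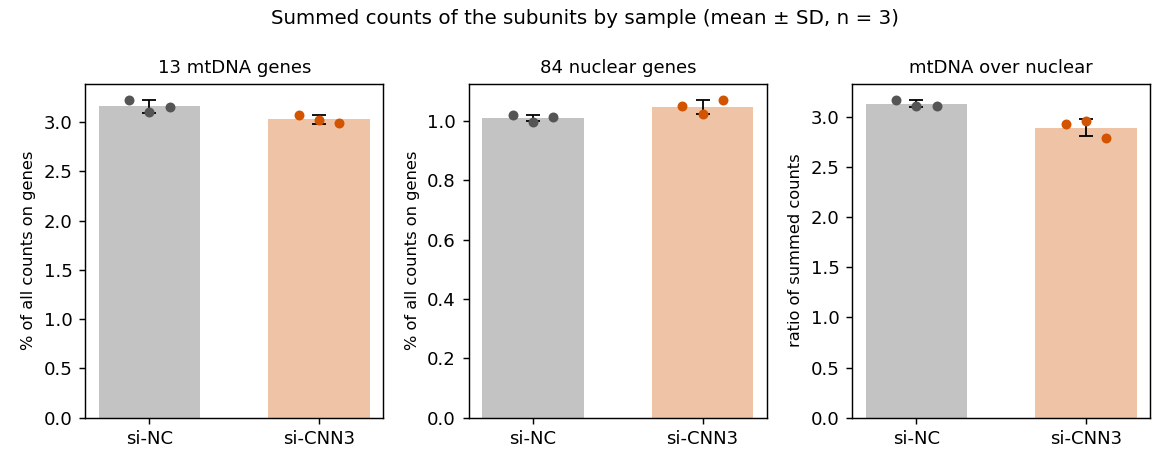
Summed counts of the 13 mitochondrial genes and of the 84 nuclear genes as a percentage of all counts on genes, and the ratio of the mitochondrial to the nuclear sum, by sample (points), with the mean (bar) and SD (n = 3 per group). The ratio is 3.11 to 3.17 with si-NC and 2.79 to 2.96 with si-CNN3.

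Among the mitochondrial genes, those of complex IV were lower. MT-CO1, which encodes the catalytic subunit of cytochrome c oxidase, measured 12802, 11671 and 12156 CPM with si-NC and 11479, 10871 and 10799.9 CPM with si-CNN3. All of its si-CNN3 samples lay below all of its si-NC samples, and it fell by 0.14 ± 0.03 on the log2 scale (edgeR, adjusted p = 2.62e-05). MT-CO3, another core subunit, measured 4971, 4834 and 4967 CPM with si-NC and 4673, 4637 and 4696 CPM with si-CNN3, a fall of 0.08 ± 0.02 without overlap (edgeR, adjusted p = 0.0153). MT-CO2, which carries the copper site that takes electrons from cytochrome c, measured 3907, 3851 and 3865 CPM against 3774, 3774 and 3786 CPM. Its groups did not overlap either, yet its log2 fold change of -0.04 ± 0.02 did not pass the threshold (edgeR, adjusted p = 0.328). The summed level of these 3 genes was 21680, 20356 and 20987 CPM with si-NC and 19926, 19282 and 19281 CPM with si-CNN3, or 92.8% of the control.

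MT-ATP6 and MT-ATP8, the mitochondrial subunits of ATP synthase, gave different values. MT-ATP6, which forms part of the proton channel, measured 2618, 2503 and 2519.8 CPM with si-NC and 2502, 2399 and 2348 CPM with si-CNN3 and fell by 0.08 ± 0.02 on the log2 scale (edgeR, adjusted p = 0.0290). The highest si-CNN3 sample lay just under the lowest si-NC sample. This call did not hold when any of si-NC replicate 1 and si-CNN3 replicates 2 and 3 was left out (adjusted p = 0.217, 0.0739 and 0.165), nor did that of MT-CO3 without si-NC replicate 1 or 3 (0.0771 and 0.0743). MT-ATP8 measured 22.48, 23.02 and 29.02 CPM with si-NC and 27.4, 27.0 and 28.7 CPM with si-CNN3, with a log2 fold change of 0.16 ± 0.07 and groups that overlapped through si-NC replicate 3 (edgeR, adjusted p = 0.113). Without that library its log2 fold change was 0.28 (adjusted p = 0.00276). The 2 genes lie on 1 transcript and share 46 bases in different reading frames (MT-ATP8 at chrM:8366-8572 and MT-ATP6 at chrM:8527-9207, both exonic on the plus strand of GRCh38). Even so, the deposited level of MT-ATP8 per length was only 2.83% to 4.02% of that of MT-ATP6 across the 6 samples. Shared bases make up 22.2% of MT-ATP8, and reads there can belong to either gene. The sequence of MT-ATP8 is shown for this overlap, with the bases it shares with MT-ATP6 in capitals.
MT-ATP8: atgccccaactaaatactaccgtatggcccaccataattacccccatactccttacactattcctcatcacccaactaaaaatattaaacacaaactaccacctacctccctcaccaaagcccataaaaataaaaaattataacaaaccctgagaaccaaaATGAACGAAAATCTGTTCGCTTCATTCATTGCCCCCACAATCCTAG

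The mitochondrial genes of complexes I and III did not pass the threshold. MT-CYB, the cytochrome b of complex III, measured 170.2, 183.5 and 177.4 CPM with si-NC and 184.8, 170.5 and 175.9 CPM with si-CNN3, and the groups overlapped. Of the 7 subunits of the proton-pumping membrane arm of complex I, 0 passed the threshold in edgeR or DESeq2 (1 with an unadjusted p under 0.05 in each) and all 7 had overlapping groups. Their log2 fold changes ran from -0.02 (MT-ND2, ± 0.02) to 0.07 (MT-ND4L, ± 0.03), with MT-ND1 at -0.02 ± 0.02, MT-ND4 at -0.02 ± 0.02, MT-ND5 at -0.01 ± 0.03, MT-ND3 at 0.00 ± 0.03 and MT-ND6 at 0.00 ± 0.04. MT-ND6 is the member encoded on the opposite strand of the circle from the others. MT-ND4L, which shares its transcript with MT-ND4, measured 425.0, 411.8 and 391.1 CPM with si-NC and 426.6, 414.7 and 449.0 CPM with si-CNN3, where the highest si-NC sample lay inside the si-CNN3 range (edgeR, adjusted p = 0.0888). Its log2 fold change was about as large as the falls of MT-CO3 and MT-ATP6, and it passed in 4 of the 18 alternative settings: total counts, the replicate block, and without si-CNN3 replicate 2 or si-NC replicate 1. Over the 13 genes the log2 fold change ran against the level (Spearman's rho -0.91 with the mean CPM, n = 13 genes measured in the same libraries), the most abundant genes being the lowest; over the 80 nuclear genes the value was -0.21.

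**Figure D3:**
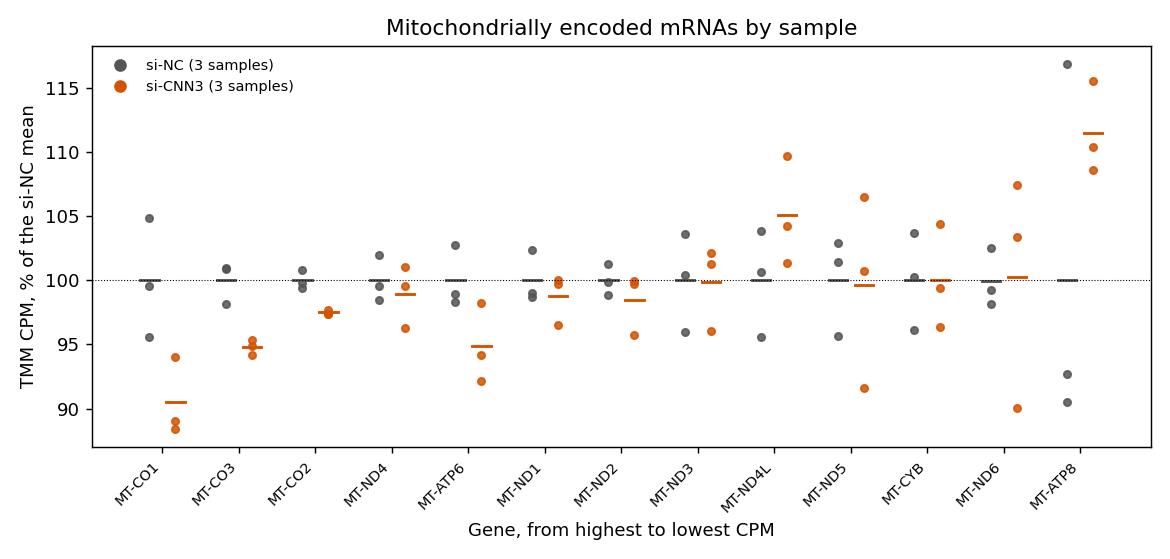
CPM of each mitochondrial gene in each sample as a percentage of its si-NC mean, with genes ordered from highest to lowest CPM and short lines at the group means. MT-CO1, MT-CO3, MT-CO2 and MT-ATP6 have all si-CNN3 samples below all si-NC samples, and the other 9 genes overlap.

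Nuclear copies of mitochondrial DNA can share reads with these genes. Of the 386 such pseudogenes in the table, 4 had enough counts for the test, and the largest were MTATP6P1 (4490 to 5817 counts), MTND2P28 (1122 to 1587) and MTCO1P12 (166 to 255). None of the 4 passed the threshold (edgeR, adjusted p from 0.183 to 0.729). In the 6 samples MTATP6P1 held 9.34% to 10.8% as many counts as MT-ATP6, MTND2P28 held 4.45% to 6.23% as many as MT-ND2 and MTCO1P12 at most 0.0966% as many as MT-CO1. For MT-ATP6 this share, which is a level and not a change, is larger than its fall of 5.13%. MTATP6P1 itself had a log2 fold change of 0.07 ± 0.03 (edgeR, adjusted p = 0.183). How the counting shared reads between the copies is not given in the sources used here, and the part of shared reads in the fall of MT-ATP6 was not tested.

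The nuclear subunits of complex I were measured next. They comprise 7 core subunits, which hold the flavin and iron-sulfur clusters, and 29 accessory subunits. Of the accessory subunits 8 rose and 0 fell (27.6% called, beside 13.3% of all genes), with a median log2 fold change of 0.07. Of the core subunits 0 rose and 1 fell, with a median of -0.05. That is 14.3% called, a share near the 13.3% of all genes. DESeq2 called 3 and 0 accessory and 0 and 1 core subunits, and an unadjusted p under 0.05 was reached by 0 accessory subunits on the lower side and 0 core subunits on the higher side in edgeR. NDUFS6, an accessory subunit next to the iron-sulfur clusters, measured 277.6, 267.8 and 263.9 CPM with si-NC and 305.6, 282.0 and 305.3 CPM with si-CNN3. It was higher in every si-CNN3 sample, with a log2 fold change of 0.14 ± 0.03 (edgeR, adjusted p = 0.000242). NDUFA6, an accessory LYR-motif protein that binds the acyl carrier protein, measured 112.0, 108.5 and 109.9 CPM against 117.3, 120.8 and 127.5 CPM, with a log2 fold change of 0.15 ± 0.03 (edgeR, adjusted p = 0.00127). Its groups did not overlap.

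The other accessory subunits that rose were NDUFB genes, grouped here after the calls were seen. Of these 11 genes 6 rose and 0 fell, beside 6.17% and 7.14% of all genes. NDUFB5, NDUFB6, NDUFB8, NDUFB10 and NDUFB11 did not pass. NDUFB9, a further LYR-motif protein, measured 78.2, 74.3 and 76.5 CPM with si-NC and 83.1, 80.3 and 86.9 CPM with si-CNN3 (log2 fold change 0.13 ± 0.04; edgeR, adjusted p = 0.0145). NDUFB3 measured 53.9, 55.9 and 56.2 CPM against 60.3, 57.2 and 64.1 CPM (0.13 ± 0.04; edgeR, adjusted p = 0.0432). Neither gene overlapped between groups, though both stood near the threshold: the call for NDUFB3 was lost in 9 of 18 alternative settings, leaving out any library but si-CNN3 replicate 2 included, and that for NDUFB9 in 4, with si-CNN3 replicate 3 or si-NC replicate 2 left out among them (adjusted p = 0.12 and 0.106). NDUFB2 also rose without overlap (0.12 ± 0.04), and NDUFB1 (0.16 ± 0.04), NDUFB7 (0.14 ± 0.04) and NDUFB4 (0.11 ± 0.04) rose with groups that overlapped. The core subunit NDUFV1, which binds NADH and the flavin, went the other way. It measured 191.3, 185.4 and 179.9 CPM with si-NC and 170.0, 167.6 and 169.7 CPM with si-CNN3, with no overlap, and fell by 0.13 ± 0.03 (edgeR, adjusted p = 0.000849). NDUFS1, the largest core subunit, measured 167.5, 175.0 and 174.0 CPM against 160.7, 163.9 and 165.2 CPM. Its samples also did not overlap, but its log2 fold change of -0.08 ± 0.03 did not pass (edgeR, adjusted p = 0.0756).

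Complex II, which is also an enzyme of the tricarboxylic acid cycle, had 4 genes. There were 0 calls in edgeR, beside 13.3% of all genes, and 0 in DESeq2, with 1 unadjusted p under 0.05 in each. Of the 4 genes, 1 had groups that did not overlap, beside 28.2% of all genes. That gene was SDHA, the flavoprotein, at 529.3, 528.3 and 526.4 CPM with si-NC and 516.4, 495.1 and 512.4 CPM with si-CNN3 (log2 fold change -0.06 ± 0.03; edgeR, adjusted p = 0.144). The iron-sulfur subunit SDHB was at -0.04 ± 0.04 and the membrane anchors SDHC and SDHD were at 0.04 ± 0.03 and -0.07 ± 0.04. The summed level of the complex was 794.8, 795.4 and 804.9 CPM with si-NC and 779.4, 765.3 and 784.6 CPM with si-CNN3, or 97.2% of the control without overlap. SDHA supplied most of that sum.

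In complex III, 1 of 9 nuclear genes rose (11.1%) and none of the others passed, a share of calls near the 13.3% of all genes. UQCR10, a small accessory subunit, measured 80.9, 76.3 and 77.6 CPM with si-NC and 91.3, 81.5 and 90.5 CPM with si-CNN3. Its lowest si-CNN3 sample lay just above its highest si-NC sample, and the log2 fold change was 0.17 ± 0.04 (edgeR, adjusted p = 0.00177). The subunits that carry the electrons did not pass: the cytochrome c1 gene CYC1 was at -0.01 ± 0.03 and the Rieske protein gene UQCRFS1 at 0.04 ± 0.03 (edgeR, adjusted p = 0.887 and 0.521). The core proteins UQCRC1 and UQCRC2 were at -0.04 ± 0.03 and -0.03 ± 0.03. The summed nuclear level of the complex was 100.3% of the control. The difference, si-CNN3 minus si-NC, ran from -14.3 to 26.2 CPM with a library left out.

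In complex IV, 3 of the 11 nuclear genes rose and 0 fell (27.3% higher, beside 6.17% of all genes), next to the falls of MT-CO1 and MT-CO3. With DESeq2 1 rose and 0 fell, and in edgeR 0 were lower at an unadjusted p under 0.05. COX5A, an accessory subunit on the matrix side, measured 148.8, 144.0 and 145.0 CPM with si-NC and 159.3, 161.0 and 164.1 CPM with si-CNN3. The groups were well apart, with a log2 fold change of 0.15 ± 0.03 (edgeR, adjusted p = 0.000296), and the gene passed under all 18 alternative settings. Its zinc-binding partner COX5B rose by 0.12 ± 0.03 (edgeR, adjusted p = 0.00988). COX6A1, the ubiquitous isoform of a regulatory subunit, measured only 17.5, 15.3 and 17.4 CPM with si-NC and 18.5, 18.8 and 20.8 CPM with si-CNN3. It was higher in every si-CNN3 sample (0.21 ± 0.07; edgeR, adjusted p = 0.0355), but the call was lost in 6 of the 18 alternatives, without si-CNN3 replicate 3 or si-NC replicate 2 (adjusted p = 0.225 and 0.279), with DESeq2 (0.228), with the length correction (0.0511), without a count filter (0.06) and in unfiltered limma (0.177). COX4I1, the regulatory subunit that binds ATP, measured 704.7, 674.4 and 685.6 CPM against 716.8, 714.4 and 727.5 CPM. Its groups did not overlap, but its log2 fold change of 0.06 ± 0.02 did not pass (edgeR, adjusted p = 0.0747). In all, 10 of the 11 nuclear genes of complex IV had a log2 fold change above 0 and all 3 mitochondrial genes of the complex had one below 0. The same signs were seen in 56 of all 80 nuclear genes tested and in 10 of all 13 mitochondrial genes.

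In complex V, 4 of 18 nuclear genes rose (22.2%, beside 6.17% of all genes) and 1 fell (5.56%, beside 7.14%). The peripheral stalk, which keeps the catalytic head from turning with the rotor, supplied 2 of the rises among its 4 genes (50%, beside 6.17% of all genes). All 4 were above 0, as were all 5 accessory membrane subunits of the complex and 56 of the 80 nuclear genes tested. ATP5PD, its d subunit, measured 55.3, 52.7 and 52.3 CPM with si-NC and 64.1, 59.6 and 65.3 CPM with si-CNN3. This was the largest rise among the genes that passed, at 0.24 ± 0.04 on the log2 scale (edgeR, adjusted p = 4.78e-05), the groups did not overlap, and the gene passed under all 18 alternatives. ATP5PF, or coupling factor 6, measured 96.8, 89.4 and 89.1 CPM against 102.1, 97.2 and 102.5 CPM, with the lowest si-CNN3 sample just above the highest si-NC sample (0.13 ± 0.04; edgeR, adjusted p = 0.00723). Without si-NC replicate 2 or 3 it did not pass (adjusted p = 0.0625 and 0.0744). ATP5PO, the stalk's connection to the head, was at 0.19 ± 0.08 with no overlap but did not pass (edgeR, adjusted p = 0.1).

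ATP5MD, a small membrane subunit also named DAPIT, measured 73.1, 68.3 and 70.2 CPM with si-NC and 81.9, 76.7 and 84.6 CPM with si-CNN3. The groups did not overlap (0.20 ± 0.04; edgeR, adjusted p = 0.000149), and it too passed under all 18 alternatives. ATP5IF1, the inhibitor that stops the enzyme from hydrolysing ATP, rose by 0.12 ± 0.03 with overlapping groups (edgeR, adjusted p = 0.00584). The single fall was that of ATP5F1D, the delta subunit of the central stalk, which measured 87.6, 92.8 and 92.8 CPM against 80.9, 84.4 and 85.1 CPM and fell by 0.13 ± 0.04 without overlap (edgeR, adjusted p = 0.0121). That call was lost without si-CNN3 replicate 1 or si-NC replicate 2 or 3 (adjusted p = 0.0881, 0.0755 and 0.0701). The large subunits of the catalytic head, ATP5F1A and ATP5F1B, were at -0.05 ± 0.03 and 0.03 ± 0.02 and did not pass.

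The level of each subunit in the control samples was compared per length, as the FPKM values (fragments relative to gene length and library size) that the authors deposited. All 13 mitochondrial genes were above 100 FPKM, and 9 of them were among the 100 highest genes of the table. They ran from 7859 ± 336 FPKM for MT-CO1 (SD, n = 3), the highest of all genes, over MT-CO3 at 6234 ± 78 and MT-CO2 at 5622 ± 23 down to MT-ATP8 at 119.1 ± 17.4 and MT-ND5 at 126.0 ± 5.2, which lie within each other's spread. Their median was 2078 FPKM. The nuclear medians lay between 85.1 FPKM in complex I and 179.2 FPKM in complex IV. The highest nuclear gene was ATP5F1B, the beta subunit of the catalytic head, at 1291 ± 24 FPKM, and the next was COX4I1 at 705.7 ± 13.1. The highest of complexes I, II and III were NDUFS6 at 424.3 ± 10.1, SDHA at 384.5 ± 1.6 and UQCRH, the hinge protein, at 430.6 ± 5.7 FPKM.

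Subunits of 1 complex did not share 1 level. In complex IV, COX6A1 stood at 26.1 ± 1.9 FPKM beside COX4I1, and in complex II, SDHD stood at 69.3 ± 3.4 FPKM beside SDHA. Lower still were UQCR11 (1.73 FPKM), NDUFA7 (2.73), NDUFA13 (2.79), NDUFV2 (3.63), NDUFB8 (3.78) and ATP5ME (4.14), although each of these encodes a regular subunit of its complex. They held only 19 to 62 counts in any sample. In GENCODE 29, between 10.9% (UQCR11) and 61.6% (ATP5ME) of the exonic bases of each are overlapped by another gene. With both strands counted, well-counted members overlap as much, such as NDUFS7 (49.1%) and NDUFB11 (44.9%, with 2528 to 3436 counts). Of the 80 tested nuclear genes, 30 overlap at least as much as UQCR11. NDUFS7, NDUFB11 and the low ATP5ME overlap on the opposite strand only. On the same strand the values are 10.9% (UQCR11), 21.0% (NDUFA13), 28.4% (NDUFV2), 32.3% (NDUFA7) and 33.8% (NDUFB8). The better-counted COX8A (589 to 755 counts) has 34.5% there. The part of overlap in the low counts was not tested. The log2 fold changes of these 6 genes, from -0.35 ± 0.25 (NDUFA7) to 0.46 ± 0.23 (ATP5ME), carried the largest errors among the subunits of the complexes, and none passed. The low isoform NDUFA4L2 (0.707 FPKM) had 6 to 27 counts and a log2 fold change of 0.92 ± 0.35 that did not pass either (edgeR, adjusted p = 0.0727).

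The nuclear genes that rose were mostly short. The length behind the FPKM values ran from 360 bases (ATP5ME) to 2096 bases (NDUFS1) over the 80 nuclear genes tested, with a median of 758.5. Of the 40 genes up to that median 13 rose and 0 fell (5 and 0 with DESeq2; 0 on the lower side at an unadjusted p under 0.05 in edgeR), with a median log2 fold change of 0.09, and of the 40 longer genes 3 rose and 2 fell, with a median of 0.01. Spearman's rho between length and log2 fold change was -0.38 over these 80 genes, which share the same libraries, and -0.03 over all 15860 genes. Among all genes, 78 of the 1731 up to that length rose and 37 fell (median 0.03), and 900 of the 14129 longer genes rose and 1096 fell. When each sample was corrected for a trend with gene length, 14 of the 18 nuclear calls and all 3 mitochondrial calls were kept, and the nuclear median was 0.05. The part of length in the rises beyond that correction was not tested.

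**Figure D4:**
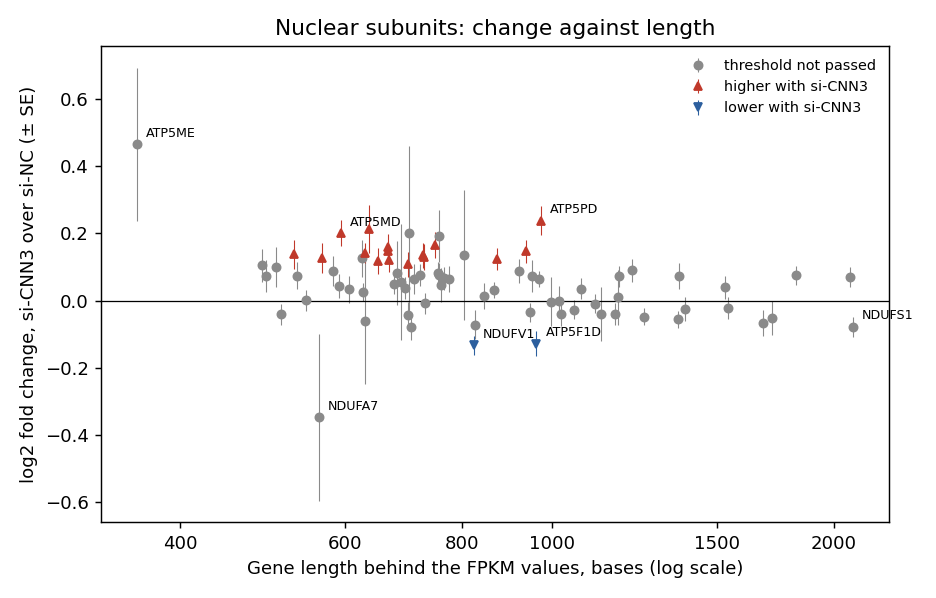
Log2 fold change (si-CNN3 over si-NC, with its SE) of the tested nuclear subunits against the gene length behind the FPKM values, on a log axis. Of the genes up to 758.5 bases 13 rose and 0 fell, and of the longer genes 3 rose and 2 fell.

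The promoters of the nuclear genes were read next, from 250 bases before to 50 bases after each gene's start in RefSeq (GRCh38.p14), because members of the chain are known to share factors. A sequence was matched for 67 of the 84 nuclear genes. On either strand, the NRF1 core GCATGCGC was found in 13 of the 67 (19.4%), beside 4.26% of the 15843 protein-coding promoters read. The ETS core CCGGAAG was found in 20 (29.9%, beside 14.2%), the YY1 word AAGATGGCG in 8 (11.9%, beside 2.74%) and the TATA word TATAAA in 6 (8.96%, beside 9.63%). These words do not depend on the RNA values. Among the 15 risen genes with a sequence, 6 held the NRF1 core (NDUFA6, NDUFB4, NDUFS6, COX5B, COX6A1 and ATP5PF) and 6 the ETS core, and among the 51 not called, 1 of them not tested, 7 and 14 held them. None of the 4 words was found in 6 of the 15 risen genes (NDUFB1, NDUFB2, NDUFB3, UQCR10, COX5A and ATP5IF1) and in 25 of the 50 tested genes that did not pass. A match of letters is a description and not a bound site.

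The promoters of 5 risen genes and of NDUFV1 are shown. ATP5PD had the largest rise, NDUFA6, COX6A1 and ATP5PF are examples picked for holding several words, COX5A is a risen gene without any, and NDUFV1 fell. Capitals mark every NRF1, ETS, YY1 or TATA word on either strand, and each sequence is written 5′ to 3′ on the strand of its gene. They lie at chr17:75046920-75047219, minus strand (ATP5PD), chr22:42090723-42091022, minus strand (NDUFA6), chr12:120437863-120438162, plus strand (COX6A1), chr21:25735005-25735304, minus strand (ATP5PF), chr15:74938024-74938323, minus strand (COX5A) and chr11:67606686-67606985, plus strand (NDUFV1).
ATP5PD: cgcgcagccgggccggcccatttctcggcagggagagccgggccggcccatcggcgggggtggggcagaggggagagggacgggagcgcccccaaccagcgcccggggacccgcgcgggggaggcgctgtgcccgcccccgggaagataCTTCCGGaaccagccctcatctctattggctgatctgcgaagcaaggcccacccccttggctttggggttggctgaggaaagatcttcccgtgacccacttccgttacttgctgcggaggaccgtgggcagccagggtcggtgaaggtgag
NDUFA6: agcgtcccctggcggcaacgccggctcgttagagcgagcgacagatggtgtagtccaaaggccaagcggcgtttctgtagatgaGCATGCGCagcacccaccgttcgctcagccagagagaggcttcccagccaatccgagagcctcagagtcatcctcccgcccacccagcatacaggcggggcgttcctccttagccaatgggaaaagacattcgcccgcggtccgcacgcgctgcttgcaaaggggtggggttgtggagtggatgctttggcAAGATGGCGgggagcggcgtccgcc
COX6A1: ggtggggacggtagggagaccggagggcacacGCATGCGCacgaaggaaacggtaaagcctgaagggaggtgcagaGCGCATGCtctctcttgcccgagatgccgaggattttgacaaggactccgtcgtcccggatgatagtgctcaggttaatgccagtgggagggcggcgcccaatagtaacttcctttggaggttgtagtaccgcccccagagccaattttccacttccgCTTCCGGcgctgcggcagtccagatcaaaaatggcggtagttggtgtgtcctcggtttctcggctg
ATP5PF: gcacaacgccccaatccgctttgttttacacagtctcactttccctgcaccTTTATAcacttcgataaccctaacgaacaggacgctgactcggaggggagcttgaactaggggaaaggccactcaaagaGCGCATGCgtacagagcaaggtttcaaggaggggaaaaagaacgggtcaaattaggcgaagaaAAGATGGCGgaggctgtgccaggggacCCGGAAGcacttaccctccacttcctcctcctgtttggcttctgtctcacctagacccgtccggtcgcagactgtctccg
COX5A: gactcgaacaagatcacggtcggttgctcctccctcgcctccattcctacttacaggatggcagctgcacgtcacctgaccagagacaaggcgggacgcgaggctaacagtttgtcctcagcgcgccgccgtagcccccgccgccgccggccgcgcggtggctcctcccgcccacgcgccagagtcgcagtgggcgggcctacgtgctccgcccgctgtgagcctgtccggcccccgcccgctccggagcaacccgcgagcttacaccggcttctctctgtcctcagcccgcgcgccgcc
NDUFV1: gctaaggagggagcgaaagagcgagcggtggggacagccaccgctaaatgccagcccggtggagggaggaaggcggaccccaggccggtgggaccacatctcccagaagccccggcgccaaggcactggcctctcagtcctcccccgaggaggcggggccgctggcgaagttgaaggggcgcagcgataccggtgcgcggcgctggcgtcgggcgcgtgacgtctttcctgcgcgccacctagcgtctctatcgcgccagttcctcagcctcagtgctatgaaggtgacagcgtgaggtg
ATP5PD, which rose most, held a single ETS word, COX6A1 held NRF1 words in both orientations and an ETS word, and ATP5PF held an NRF1, an ETS, a YY1 and a TATA word. None of these words was found in the windows of COX5A, which rose, and NDUFV1, which fell, and this says nothing about the factors.

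Genes around the chain gave a background for its subunits. Of 108 tested genes for assembly factors, subunits outside the name rule, electron carriers, the tricarboxylic acid cycle and mitochondrial import, 9 rose (8.33%, beside 6.17% of all genes) and 3 fell (2.78%, beside 7.14%), with a median log2 fold change of 0.03. Among the 52 tested assembly factors 5 rose and 1 fell, or 11.5% called beside 13.3% of all genes, a share near the background. NUBPL, which delivers iron-sulfur clusters to complex I, measured 18.04, 20.17 and 18.45 CPM with si-NC and 25.1, 22.0 and 24.0 CPM with si-CNN3 (0.32 ± 0.07; edgeR, adjusted p = 0.00027). It was higher in every si-CNN3 sample. The complex I factors TIMMDC1 (0.11 ± 0.04) and NDUFAF8 (0.14 ± 0.04) and the complex IV factors SURF1 (0.15 ± 0.05) and COA4 (0.13 ± 0.04) also rose, and the complex III factor LYRM7, which guards the Rieske protein, fell by 0.17 ± 0.04.

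NDUFAB1, the acyl carrier protein that sits in complex I and binds LYR-motif subunits such as NDUFA6 and NDUFB9, measured 75.8, 77.8 and 81.8 CPM with si-NC and 87.7, 84.3 and 94.9 CPM with si-CNN3. It rose by 0.18 ± 0.04 on the log2 scale without overlap (edgeR, adjusted p = 0.00067). Of the 16 carrier, porin and import genes tested, 18.8% rose and 6.25% fell, beside 6.17% and 7.14% of all genes. The chaperonins HSPE1 (0.22 ± 0.05) and HSPD1 (0.11 ± 0.02) and the import receptor TOMM22 (0.16 ± 0.03) rose. SLC25A5, an ADP/ATP carrier of the inner membrane, fell by 0.12 ± 0.03. Of the 17 tricarboxylic acid cycle and pyruvate dehydrogenase genes, 1 fell (5.88%, beside 7.14% of all genes) and the others did not pass. That gene was PDHX, which binds the E3 subunit of pyruvate dehydrogenase, with a fall of 0.16 ± 0.05. Of the 19 genes for electron carriers and coenzyme Q synthesis, 0 passed in edgeR (beside 13.3% of all genes) or DESeq2. In edgeR 2 were higher and 1 was lower with an unadjusted p under 0.05, and CYCS, cytochrome c, was at 0.04 ± 0.03. The mitochondrial ribosomal RNAs MT-RNR1 and MT-RNR2 were not found among the named genes of the deposited table and could not be analysed.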

How the data were processed

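RNA of 6 SiHa samples (3 si-CNN3, 3 si-NC; groups and replicate numbers from the labels) had been made into TruSeq libraries, whose kit does not mark strand. The submitters' processing notes name TopHat2 2.0.9, Bowtie2 2.0.6, HTSeq and DESeq 1.10.1; the genome build, annotation and strand setting are not given in the sources used here. The authors deposited raw counts per Ensembl gene, and FPKM values that equal count over length and total with 1 whole-number length per gene (30502 of 30502 genes with counts, within 1e-06). Names came from GENCODE 29 (45342 of 48162 identifiers matched). Members and lists were chosen with earlier results of these data known.

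Counts were tested with edgeR 4.0.16 in R 4.3.3 (TMM, filterByExpr, glmQLFit and glmQLFTest, condition only, Benjamini-Hochberg over 15860 genes, threshold 0.05). The SE is the absolute log2 fold change over the square root of F. The common biological coefficient of variation was 0.0232. Samples of 1 condition were more different than sampling of reads allows (chi-square over its degrees of freedom 1.56 to 1.98), so none were merged. That comparison cannot tell separate cultures from separate libraries of 1 culture. The SE and the calls rest on the spread between these samples. An exact permutation test of 3 against 3 cannot go below 0.1 and was not used. Members named are the 13 mitochondrial genes, the 10 largest rises and falls past the threshold without overlap, the highest and lowest of each complex, and reference subunits; of the other lists, the 2 largest changes past the threshold. The other called genes, SDHC, UQCRC2, ATP5PO, NDUFA4L2, CYCS, NDUFS7 and NDUFB11 were named after their values were seen. So were COX8A, the NDUFB genes not called and the other low genes. RLE, upper quartile and total-count scaling, scaling without mitochondrial genes, DESeq2 1.42.0, no count filter or at least 10 counts per sample, a replicate block, length correction by loess (span 0.3), each library left out in turn, and limma 3.58.1 were tried as alternatives; limma ran on log2 FPKM values with a pseudocount of 1 or 0.1 above a mean of 1 FPKM, and with a pseudocount of 1 unfiltered, a scale that understates the change of low genes.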

Additional observations from a re-analysis of the deposited data

How the results depend on the processing

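The 16 nuclear rises became 8 with DESeq2, 3 in the unfiltered limma fit on log2(FPKM + 1) and 8 to 23 with each library left out (8 without si-NC replicate 2 and 9 without si-NC replicate 3). The 2 nuclear falls became 1 with DESeq2, 1 with limma on log2(FPKM + 1) and 1 on log2(FPKM + 0.1), 0 without a filter in limma, and 1 to 2 with a library left out (1 without si-CNN3 replicate 1 or si-NC replicate 2 or 3). The 3 mitochondrial falls became 1 and 1 in the filtered limma fits, 0 in the unfiltered one and 1 to 3 with a library left out (1 without si-NC replicate 1). For that 0, 1 of the 13 genes had an unadjusted p under 0.05, and edgeR and DESeq2 each called 3. A mitochondrial rise, of MT-ND4L, appeared with total counts (1 gene), and 0 to 1 appeared with a library left out (MT-ND4L without si-CNN3 replicate 2 or si-NC replicate 1, MT-ATP8 without si-NC replicate 3). The surrounding genes gave 5 rises with DESeq2, 1 in the unfiltered limma fit and 5 to 10 with a library left out (5 without si-CNN3 replicate 3). They gave 5 falls with no count filter, 0 in the unfiltered limma fit and 2 to 4 with a library left out. ATP5PD, ATP5MD and COX5A passed in all 18 alternatives, and MT-CO1 in all but the unfiltered limma fit. Over all genes, calls ranged from 585 in the unfiltered limma fit (1087 with DESeq2) to 2727 with the replicate block, beside 2111. The cause of these differences was not tested.

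The replicate numbers did not meet the rule for pairs (correlations of same-numbered deviations 0.059, 0.121 and 0.092), although every sample correlated best with its own number, a hint from the data and not the design. With the replicate block there were 25 nuclear rises and 4 falls, 2 mitochondrial rises and 3 falls, and 6 falls among the surrounding genes.

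Among the single genes followed through the alternatives, changes of sign were limited to those near 0 on the log2 scale in the main fit. With upper quartile scaling MT-ND3 was at 0.0032 and MT-CYB at 0.0045. With total counts MT-ND4 was at 0.0021, MT-ND5 at 0.011, MT-ND3 at 0.015, MT-CYB at 0.016 and CYC1 at 0.0084, and MT-ATP6 did not pass (adjusted p = 0.0694). Without a count filter MT-ND6 was at -0.0018, and with the length correction MT-ND6 was at -0.0072 and MT-CYB at 0.0014. The limma fits, on log2(FPKM + 1) with and without the filter and on log2(FPKM + 0.1), gave MT-ND4 at 0.0019, MT-ND5 at 0.0097, MT-ND3 at 0.015, MT-CYB at 0.0174 and 0.0175 and CYC1 at 0.0077 and 0.0078. With each library left out, MT-ND4 ranged from -0.031 to 0.0032, MT-ND5 from -0.057 to 0.049, MT-ND3 from -0.032 to 0.024, MT-ND6 from -0.049 to 0.074, MT-CYB from -0.034 to 0.026 and CYC1 from -0.032 to 0.0097. The mitochondrial share and the ratio to the nuclear genes kept their direction in every alternative run. Below about 100 counts, as for NDUFA7 or ATP5ME, counting error hides changes of the size seen elsewhere.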
